A study of Mus musculus with 16 samples.

Results

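Matricellular proteins are secreted into the matrix around cells and act on cells through receptors rather than as load-bearing fibers. Here 10 of their genes, among 21959 genes counted, were followed in the tumor RNA of mice with colorectal liver metastasis. The 10 genes were taken by symbol from a list that was drawn up with earlier results of these data known, and all 10 passed the filter on low counts. They are Postn, Cthrc1, Sparc, Sparcl1, Tnc, Thbs1, Thbs2, Ccn1, Ccn2 and Fn1. The hosts in all 4 groups were male wild-type C57BL/6 mice, 6 weeks old at injection, and all of them carried MC38 tumors. MC38 is a mouse colon adenocarcinoma line, and its cells were placed in the lower part of a divided spleen, from where they seed the liver. Control mice received PBS. Another group received SB525334, an oral inhibitor of the TGF-β type I receptor (ALK5), at 20 mg/kg daily. The KN046 group received this antibody against PD-L1 and CTLA-4 at 10 mg/kg into the peritoneum 2 times a week, and the combination group received both agents. Each group held 4 mice, numbered 1 to 4 within the group, and each mouse gave from 18368994 to 23877131 counts in total. The metastases grow from 1 transplanted line, and nothing in the labels says which part of a tumor or how much adjoining liver was taken.

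Fibroblasts that TGF-β activates deposit collagen together with matricellular proteins. Periostin (Postn) binds integrins and collagen and helps fibers cross-link. Cthrc1 encodes a secreted protein with short collagen-like repeats that marks fibroblasts in a TGF-β-driven, collagen-making state. Sparc encodes a glycoprotein that binds calcium and collagen, and Sparcl1 its relative, which is typical of vessel walls and resting stroma. Tenascin-C (Tnc) appears around wounds and in tumor stroma. The thrombospondins Thbs1 and Thbs2 restrain vessel growth through the receptor CD36, and only thrombospondin-1 carries the short sequence that activates latent TGF-β. Ccn1 and Ccn2 are rapidly induced genes that answer to both the YAP-TEAD pathway of stretched cells and TGF-β signaling through SMAD proteins. Fibronectin (Fn1) is the large adhesive glycoprotein that fibroblasts assemble into fibrils and that hepatocytes secrete into plasma.

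The promoters of the 3 genes that differed between the combination and control are shown first, since they let the letters of TEAD and SMAD motifs be read beside the counts. Each sequence is the 250 bases before the outermost annotated start of the gene, written 5′ to 3′ on the strand of the gene, from the GRCm39 genome. Capitals mark matches on either strand. The letters searched for TEAD proteins were GGAATG. For SMAD proteins they were CAGAC. The TATA box was searched as TATAAA. For AP-1 the letters were TGANTCA, with N for any base, and a stretch could count for more than 1 motif. Cthrc1 is at chr15:38939996-38940245 (plus strand), Postn at chr3:54268251-54268500 (plus) and Thbs2 at chr17:14914529-14914778 (minus). The genes themselves follow each window, Cthrc1 (ENSMUSG00000054196) from 38940246 to 38950518, Postn (ENSMUSG00000027750) from 54268501 to 54298471 and Thbs2 (ENSMUSG00000023885) from 14885761 to 14914528, and all 10 genes are annotated as protein coding.
Cthrc1: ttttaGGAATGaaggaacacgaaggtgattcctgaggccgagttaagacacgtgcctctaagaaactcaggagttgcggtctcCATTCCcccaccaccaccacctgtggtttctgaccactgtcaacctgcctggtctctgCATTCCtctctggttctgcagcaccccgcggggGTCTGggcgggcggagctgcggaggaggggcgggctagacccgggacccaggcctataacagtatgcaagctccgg
Postn: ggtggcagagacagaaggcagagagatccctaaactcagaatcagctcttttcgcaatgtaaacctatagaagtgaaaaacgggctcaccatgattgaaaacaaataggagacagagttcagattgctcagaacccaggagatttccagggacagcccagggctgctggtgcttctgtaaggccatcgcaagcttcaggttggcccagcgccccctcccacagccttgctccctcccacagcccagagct
Thbs2: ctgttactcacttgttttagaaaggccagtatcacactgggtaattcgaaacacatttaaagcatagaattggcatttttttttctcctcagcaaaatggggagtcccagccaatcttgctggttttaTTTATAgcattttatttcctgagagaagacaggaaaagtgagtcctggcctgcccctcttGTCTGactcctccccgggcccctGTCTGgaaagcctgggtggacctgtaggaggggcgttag

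The window of Cthrc1 held 3 matches to the TEAD letters and 1 to the SMAD letters. With the base before the start counted as -1, the TEAD matches of Cthrc1 began at -245, -167 and -109. Thbs2 held 2 SMAD matches and 1 match to the TATA box letters, at -122 and read on the strand opposite to the gene. Postn held none of the 4 motifs. Of 21579 promoters of the same length, 12.3% held the TEAD letters, 42.0% the SMAD letters, 12.5% the TATA box letters and 6.48% the AP-1 letters. A match is a description of letters in this window and was not tied to binding.

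Control mice 1 and 2 resembled each other closely, as did control mice 3 and 4. The median chi-square of counts over genes was 1.25 in the first pair and 0.956 in the second, where counting alone gives 0.455 and the other pairs of mice within a group gave 2.82 to 18.7. Both pairs exceeded counting noise, which does not show whether they are separate animals or repeat libraries of 1 animal, so the control group may hold as few as 2 animals. They were kept as 4 samples as labelled. Fits with each pair merged, or with only 1 pair, were read for the matricellular genes followed here. By gene they covered only part of the results. Calls or directions that changed in them are named below. For the genes of all other lists no such fit is given, so whether their calls depend on the control pairs was not tested.

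**Figure D1:**
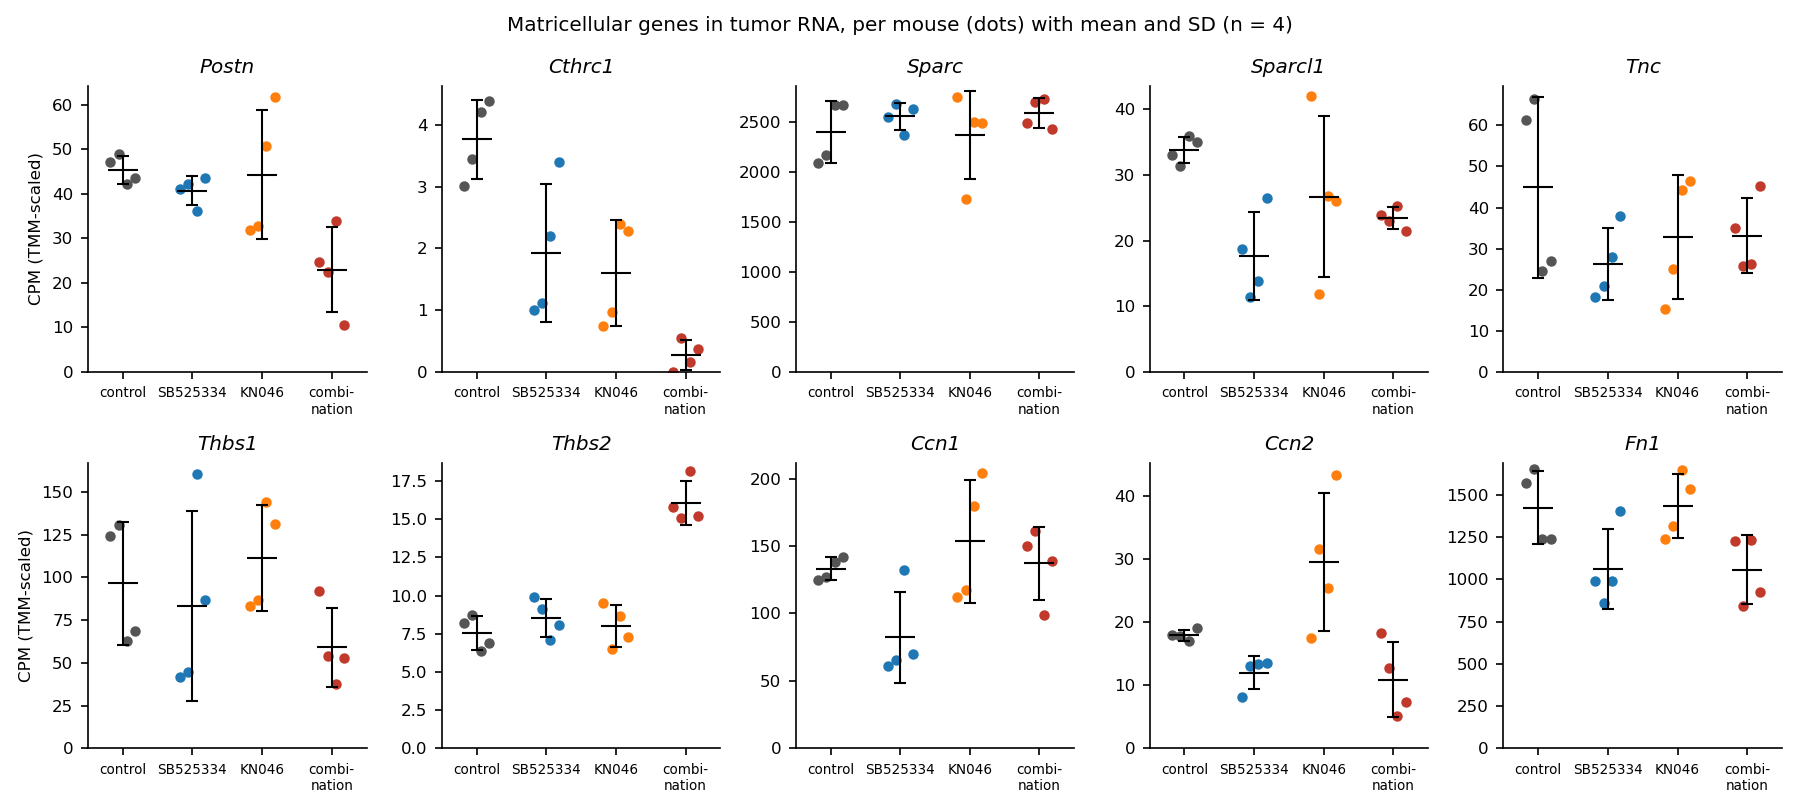
Level of each of the 10 genes in CPM (reads per 1000000 reads counted, vertical axis from 0) by treatment group (horizontal axis), where dots are mice and the bar is the mean with the SD of 4 mice. Cthrc1 and Postn in the combination group lie below the control range and Thbs2 lies above it. In every gene except Ccn2 the controls split into mice 1 and 2 against 3 and 4, most widely in Tnc and Thbs1.

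CPM are reads per 1000000 reads counted, after TMM scaling. Per length of exon, the 10 genes covered a wide range of abundance. Sparc was by far the highest, with a mean over the 16 mice of 580.5 CPM per kilobase, which placed it 28th among the 13968 genes tested. Fibronectin followed at 78.6 and Ccn1 at 62.2 CPM per kilobase. Thbs1 stood at 13.6 CPM per kilobase, Ccn2 at 5.51, Postn at 4.38, Tnc at 4.29 and Sparcl1 at 3.39. Thbs2, at 1.20 CPM per kilobase, and Cthrc1, at 0.971, were the lowest. Over the 16 mice the range of Sparc overlapped with no other gene, and those of Fn1 and Ccn1 overlapped with each other alone. Below them, each gene's range overlapped with that of the next in this order. These ranges pool the mice of all groups, and the order of the genes within each mouse was not examined. Within single groups Thbs1 lay above Ccn2 without overlap, except with KN046 (12.9 to 22.3 against 5.47 to 13.6). Of the summed level per length of the 10 genes, Sparc made up 70.4% to 77.9% in controls, 76.7% to 85.3% with SB525334, 70.0% to 79.6% with KN046 and 76.1% to 81.3% in the combination group.

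**Figure D2:**
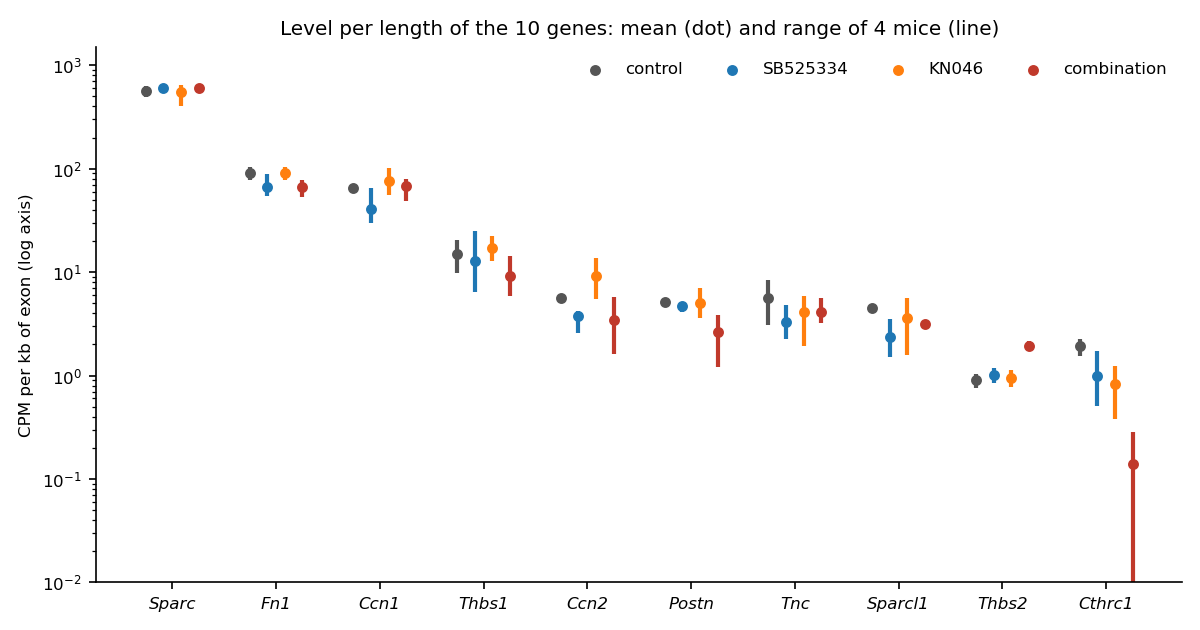
Level of the 10 genes per kilobase of exon (vertical log axis, CPM per kilobase) in the 4 groups, with the mean as a dot and the range of 4 mice as a line. Sparc is the highest gene in every group, while Cthrc1 spreads furthest, because combination mouse 1 had no Cthrc1 read and its line runs to the lower edge.

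The level of Sparc varied least, its highest mouse being 1.59 times its lowest, against 1.95 times for Fn1 and 8.45 times for Ccn2. No such ratio can be given for Cthrc1, which was at 0 in 1 mouse.

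The combination was first compared with control, which asks what both agents together do to these genes. Cthrc1 and Postn fell and Thbs2 rose in the combination group, and the ranges of the 4 mice did not overlap for any of these 3 genes. Cthrc1 was 13.5-fold lower, Postn 1.98-fold lower and Thbs2 2.12-fold higher. As background, TGF-β is known to induce Cthrc1 and Postn, and thrombospondin-2 is known to inhibit vessel growth. These 3 of 10 genes passed an adjusted p of 0.05 in edgeR's quasi-likelihood test over all genes, where 11.1% of all genes did, 9.74% being lower and 1.37% higher. In all, 7 of the 10 fold changes were below 0 and 3 above, with a median log2 fold change of -0.49, against 0.013 over all genes tested.

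Cthrc1 in control mice 1 to 4 was 3.02, 3.46, 4.21 and 4.39 CPM (69, 73, 83 and 84 reads). In the combination mice it was 0, 0.552, 0.164 and 0.377 CPM (0, 10, 3 and 8 reads). The control mice were therefore close together, though mice 1 and 2 were below mice 3 and 4. Every combination mouse was far below the controls, with combination mouse 1 at no read at all. A count of 0 allows up to 3 reads in that mouse, and this limit covers counting error only. The log2 fold change was -3.76 (SE 0.62, 95% interval -5.07 to -2.45, edgeR adjusted p = 2.2e-04). The call was kept in all 10 alternative fits and in each of 8 fits with 1 mouse left out.

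Postn was measured at 47.2, 48.9, 42.2 and 43.5 CPM in the control mice and at 24.8, 22.5, 33.9 and 10.6 CPM in the combination mice. All combination mice lay below all controls, with mouse 3 nearest to them and mouse 4 furthest away. The log2 fold change was -0.99 (SE 0.26, 95% interval -1.53 to -0.45, edgeR adjusted p = 0.0144). Leaving out any mouse kept the call. It was lost when the control pairs were merged (log2 fold change -0.99, adjusted p = 0.0797) and with control mice 3 and 4 alone (-0.91, adjusted p = 0.117).

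Thbs2 was at 8.22, 8.71, 6.34 and 6.90 CPM in controls and at 15.8, 15.1, 18.1 and 15.2 CPM with the combination. Both groups were tight, though control mice 1 and 2 were above mice 3 and 4. The lowest combination mouse was well above the highest control. The log2 fold change was 1.09 (SE 0.17, 95% interval 0.74 to 1.44, edgeR adjusted p = 8.6e-05), and it too was called in all 10 alternative fits and in all 8 fits with a mouse left out. Its relative Thbs1 gave 124, 131, 62.8 and 68.5 CPM in controls and 92.1, 54.0, 37.8 and 52.8 CPM with the combination. For Thbs1, 3 of 4 combination mice were below all controls and mouse 1 lay between the control pairs, and the difference did not pass the test (log2 fold change -0.71, 95% interval -1.52 to 0.10, adjusted p = 0.297). The difference between the responses of the 2 thrombospondins was not tested.

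Sparcl1 and Fn1 also had ranges that did not overlap between the combination and control, without passing the test. Non-overlap was found in 5 of the 10 genes, 4 of them lower, against 12.1% of all genes lower and 5.32% higher. Sparcl1 was 33.0, 31.4, 35.9 and 35.0 CPM in controls and 23.9, 23.0, 25.3 and 21.4 CPM with the combination (log2 fold change -0.53, 95% interval -1.12 to 0.06, adjusted p = 0.279). Both groups of Sparcl1 values were tight. In a fit of those 8 mice alone, where the wider spread of the SB525334 and KN046 mice did not enter, the difference passed (-0.53, adjusted p = 0.00271). That fit counted the 4 controls as separate animals, although their pairs may be repeat libraries. With the control pairs merged, in the fit over all groups, the difference did not pass (-0.53, adjusted p = 0.552). Fn1 was 1569, 1651, 1241 and 1237 CPM in controls and 1225, 845, 1236 and 927 CPM with the combination, so the nearest mice of the groups were almost equal. Its log2 fold change was -0.43 (95% interval -0.79 to -0.07, adjusted p = 0.137), and among the alternatives run it passed only against control mice 1 and 2 (-0.60, adjusted p = 0.0476).

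Tnc was 61.3, 66.5, 24.6 and 27.1 CPM in controls and 35.1, 25.7, 26.4 and 45.2 CPM with the combination, all of which lay within the range of the controls (log2 fold change -0.44, 95% interval -1.21 to 0.32, adjusted p = 0.521). Its direction depended on the control pair, since it was 0.35 against control mice 3 and 4. Ccn2 was 17.9, 17.7, 16.9 and 19.1 CPM in controls and 18.3, 12.7, 5.13 and 7.40 CPM with the combination. Controls of Ccn2 agreed closely while 3 of 4 combination mice were lower, and the difference did not pass the test (-0.72, 95% interval -1.38 to -0.05, adjusted p = 0.189), though it did without combination mouse 1 (-1.06, adjusted p = 0.0235).

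Sparc and Ccn1 had nearly the same mean in these groups. Sparc was 2085, 2169.8, 2667 and 2665 CPM in controls and 2488, 2702, 2729 and 2430.4 CPM with the combination, with a log2 fold change of 0.11 (95% interval -0.18 to 0.41, adjusted p = 0.692). Ccn1 was 124.6, 127, 138 and 142 CPM in controls and 149.7, 161, 98.7 and 139 CPM with the combination, with a log2 fold change of 0.044 (95% interval -0.45 to 0.54, adjusted p = 0.933). These intervals bound the change of Sparc more narrowly than that of Ccn1, and they do not show that either gene was unaffected. Both signs turned with control mice 3 and 4 alone, to -0.049 for Sparc and -0.038 for Ccn1.

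**Figure D3:**
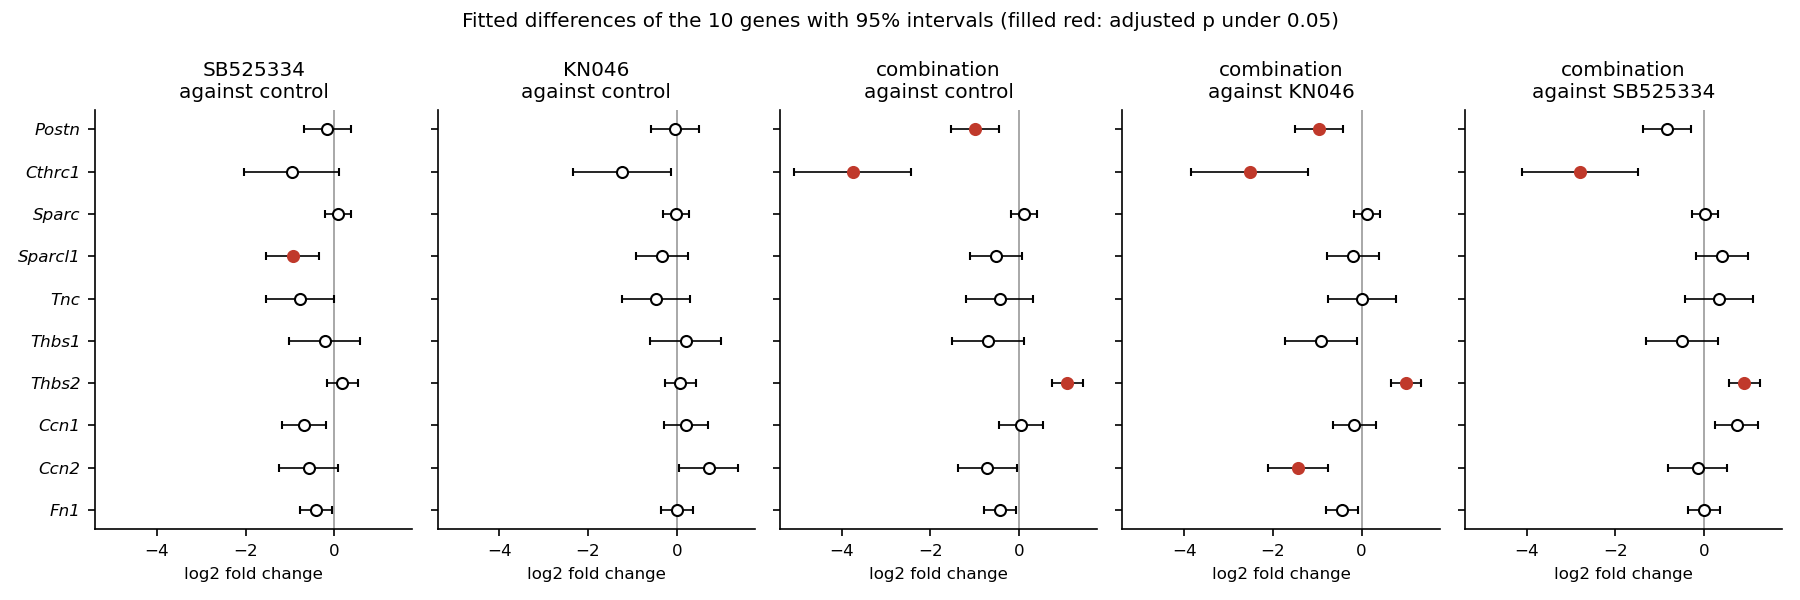
Log2 fold change of each gene (horizontal axis) with its 95% interval (line) in the comparisons of groups, where filled red points have an adjusted p under 0.05 in edgeR. Thbs2 lies right of 0 and Cthrc1 left of 0 in each comparison of the combination with another group.

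Since these are RNA levels of whole tissue, fewer cells of a type and less RNA per cell cannot be told apart. Levels were therefore also set against a list of 12 fibroblast genes (among them Col1a1, Col3a1, Pdgfra and Dcn), all of which were detected in every group. The summed level of that list was 9589.9 to 11000 CPM in controls, 9318 to 13608 with SB525334, 8543 to 11521 with KN046 and 8210.4 to 14487 in the combination group, so the 4 ranges overlapped. Of the 12 genes, Col1a2 and Lum were called lower in the combination than in control and none higher. Relative to the geometric mean of the list, on a log2 scale, Cthrc1 was -5.97 to -5.42 in controls and at most -8.32 with the combination. The same ratio for Postn was -2.12 to -2.01 in controls and -3.60 to -2.70 with the combination, and for Thbs2 it was -4.83 to -4.53 and -3.60 to -3.09. Ranges of this ratio did not overlap with control for these 3 genes, and the share of all genes without overlap in it was not computed. The ranges did overlap for Sparcl1 and Fn1, whose CPM ranges did not. Sparcl1 was -2.71 to -2.33 in controls and -3.12 to -2.59 with the combination, and Fn1 was 2.71 to 3.05 and 2.23 to 2.85. Single agents also gave ratios wholly below control. With SB525334 these were Postn (-2.51 to -2.24), Sparcl1 (-4.41 to -2.96) and Ccn2 (-4.66 to -3.74, control -3.54 to -3.31). With KN046 it was Cthrc1 (-7.88 to -6.23).

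Genes of other cell types moved between the same groups. The summed level of 15 hepatocyte genes was 18877 to 24008 CPM in controls, 759 to 2714 with SB525334, 11685 to 24657 with KN046 and 79.3 to 103 in the combination group. All 15 were called lower in the combination than in control, and Serpina1c was at 0 in the combination mice. The 10 endothelial genes summed to 116 to 249 CPM in controls and 104 to 123 with the combination, with 4 of 10 called lower. Of 8 epithelial genes of colon carcinoma, the sum was 149 to 248 CPM in controls and 6.55 to 16.3 with the combination. SB525334 mice gave 36.7 to 51.2 CPM and KN046 mice 123 to 201 CPM. The medians of this list ranked the groups in the same order as those of the hepatocyte list. Whether tumor cells became fewer was not tested. Whole-tissue RNA does not tell whether reads of these epithelial genes came from tumor cells or from adjoining liver. Only 6 of the 8 epithelial genes passed the filter on low counts. The intestinal markers Krt20 and Cdx2 were at 0 with SB525334 and with the combination, as was Cdx2 with KN046. Macrophage genes (8) summed to 927 to 986 CPM in controls and 919 to 1038 with the combination, so the ranges overlapped. Neutrophil genes (7) summed to 159.9 to 174 CPM in controls, 8.72 to 19.8 with SB525334, 16.7 to 28.2 with KN046 and 5.84 to 226 in the combination group. Smooth muscle and pericyte genes (9) summed to 305 to 373 and 295 to 411 CPM, and platelet genes (8), which bear on the Thbs1 that platelets carry, to 27.3 to 38.0 and 26.3 to 60.1 CPM, with Gp1bb at 0 in both groups. The part of these cell types in the differences of Cthrc1, Postn and Thbs2 was not tested.

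**Figure D4:**
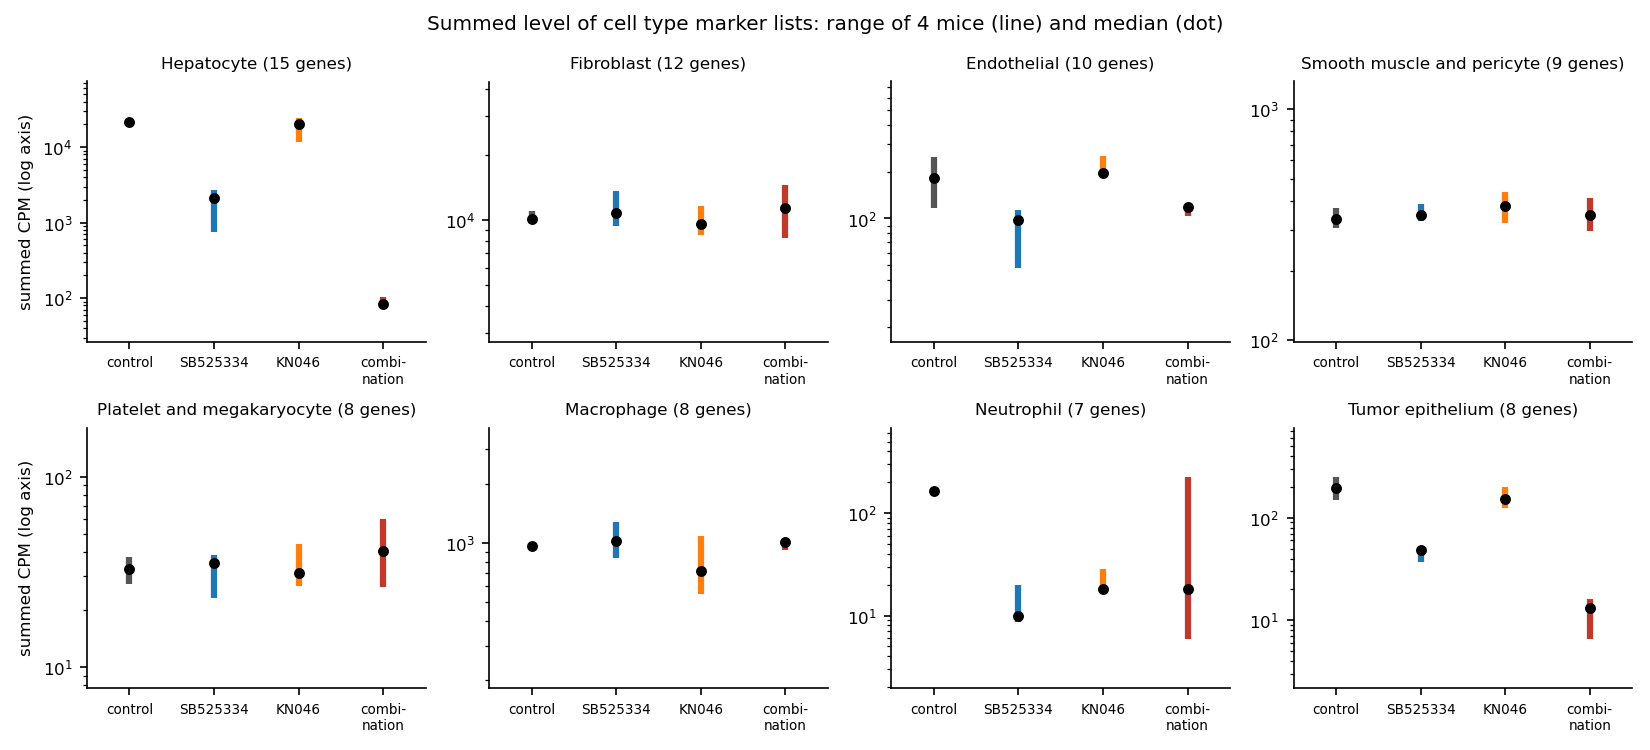
Summed CPM (vertical log axis) of lists of cell type genes by group, with the median as a dot and the range of 4 mice as a line. Fibroblast lists overlap across the groups, whereas hepatocyte genes fall from 18877 or more in controls to 103 or less in the combination mice.

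The combination was next compared with KN046 alone, which asks what adding SB525334 to the antibody changes. Cthrc1, Postn and Ccn2 fell and Thbs2 rose. These 4 of 10 genes compare with 24.4% of all genes called, 14.5% lower and 9.89% higher. The fold changes were below 0 in 7 of the 10 genes, with a median log2 fold change of -0.31. Ranges did not overlap in 3 (Cthrc1, Fn1 and Thbs2), against 12.4% of all genes lower and 7.9% higher. The largest was that of Cthrc1, which was 0.746, 0.972, 2.40 and 2.29 CPM with KN046, above every combination mouse (5.76-fold lower in the combination, log2 fold change -2.53, SE 0.63, edgeR adjusted p = 0.00817). Thbs2 was 9.54, 6.51, 8.66 and 7.27 CPM with KN046, again without overlap (2.01-fold higher in the combination, log2 fold change 1.005, SE 0.17, adjusted p = 2.2e-04).

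Ccn2, the growth factor-like protein of fibrotic tissue, had its highest mean with KN046. It was 17.4, 31.6, 25.4 and 43.3 CPM there, so that 3 of 4 mice were above all controls, and only combination mouse 1 was above any KN046 mouse. The level was lower in the combination, at a mean of 10.9 against 29.4 CPM (log2 fold change -1.43, SE 0.32, 95% interval -2.11 to -0.76, edgeR adjusted p = 0.00356). Postn, at 31.8, 32.9, 50.7 and 61.7 CPM with KN046, was lower in the combination with combination mouse 3 inside the KN046 range (-0.95, SE 0.26, adjusted p = 0.0135), and this call was lost when the 8 mice were fitted alone (-0.96, adjusted p = 0.0631). Fn1 was 1239, 1315, 1649.6 and 1537 CPM with KN046, and all 4 values were above the combination mice, the closest by a few CPM. Its difference did not pass the test (-0.44, adjusted p = 0.0691), but did with DESeq2 (-0.45, adjusted p = 0.0399) and without combination mouse 1 (-0.51, adjusted p = 0.0452). Thbs1, at 83.0, 86.8, 144 and 131 CPM with KN046, did not pass either (-0.91, SE 0.39, adjusted p = 0.0905), and did so with the 8 mice alone (-0.92, adjusted p = 0.0363) and without combination mouse 1 (-1.20, adjusted p = 0.0364). In this comparison the 15 hepatocyte genes were all called lower, 6 of 10 endothelial genes were called lower and 5 of 8 macrophage genes higher, and of the fibroblast genes 3 were called higher and 1 lower. Their part in these differences was not tested.

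Against SB525334 alone, which asks what adding KN046 to the inhibitor changes, Cthrc1 again fell and Thbs2 rose. This is 2 of 10 genes, where 3.57% of all genes were called, 3.03% lower and 0.544% higher. Ranges did not overlap for these 2 and for Postn, against 4.62% of all genes lower and 2.43% higher. Cthrc1 with SB525334 was 0.994, 1.11, 2.19 and 3.40 CPM, all above the combination mice (6.94-fold lower in the combination, log2 fold change -2.79, SE 0.62, edgeR adjusted p = 0.0116), and the call was lost with the 8 mice alone (-2.80, adjusted p = 0.0538). Thbs2 with SB525334 was 9.90, 9.12, 7.10 and 8.06 CPM, all below the combination mice (1.88-fold higher, 0.91, SE 0.16, adjusted p = 0.00202). Postn, at 41.0, 42.2, 36.1 and 43.5 CPM with SB525334, was above every combination mouse but did not pass the test (-0.83, adjusted p = 0.107). It passed with DESeq2 (-0.84, adjusted p = 0.0327) and without combination mouse 3 (-1.08, adjusted p = 0.0236). Hepatocyte genes differed here too, with all 15 lower in the combination, and of the endothelial genes edgeR called 0, DESeq2 1, and 3 had an unadjusted p under 0.05. The fibroblast gene Lum and the epithelial genes Krt8 and Krt18 were also called lower, and the neutrophil genes Ly6g and Ngp higher. Their part in the Cthrc1 and Thbs2 differences was not tested.

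SB525334 alone was compared with control to ask what blocking the TGF-β receptor does to these genes. Of the 10 genes, 8 had log2 fold changes below 0 with a median of -0.50, against 5.9e-04 over all genes, and 1 passed the test, where 9.61% of all genes did, 9.22% being lower. That gene was Sparcl1, which was 18.8, 11.3, 13.9 and 26.5 CPM with SB525334. Every treated mouse was below the lowest control, and the treated mice were more scattered than the controls. Sparcl1 was 1.92-fold lower (log2 fold change -0.94, SE 0.28, 95% interval -1.53 to -0.35, edgeR adjusted p = 0.0402). The call held in only 1 of 8 fits with a mouse left out, where the adjusted p ran from 0.00886 to 0.145, and was lost with the control pairs merged (-0.94, adjusted p = 0.174), with control mice 1 and 2 alone (-0.87, adjusted p = 0.123) and with control mice 3 and 4 alone (-1.01, adjusted p = 0.121). Endothelial genes, listed because Sparcl1 is expressed in vessels, summed to 48.1 to 113 CPM with SB525334 against 116 to 249 in controls, and 6 of 10 (Pecam1, Cdh5, Kdr, Tek, Robo4 and Vwf) were called lower. Rgs5, a pericyte gene, was the 1 of 8 tested smooth muscle and pericyte genes called lower. In the same comparison 15 of 15 hepatocyte genes, 6 of 7 neutrophil genes and 2 of 6 tested epithelial genes (Krt8 and Krt18) were called lower. The part of these cell types in the differences of Sparcl1 and the other genes was not tested.

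Neither CCN gene passed the test with SB525334, although most treated mice were below the controls. Ccn1 was 61.2, 65.7, 132 and 70.0 CPM there, so 3 mice stood close together below all controls and mouse 3 stood within the control range. The log2 fold change was -0.69 (SE 0.23, 95% interval -1.19 to -0.20, adjusted p = 0.0808), and it became -1.01 with an adjusted p of 0.00211 without mouse 3. Ccn2 was 8.14, 13.0, 13.3 and 13.5 CPM with SB525334, and all of these were below the lowest control. Ccn2 and Sparcl1 were the 2 genes of the 10 without overlap, where 13.3% of all genes were lower without overlap and 5.0% higher. The test of Ccn2 did not pass in the fit over 16 mice (log2 fold change -0.58, 95% interval -1.24 to 0.09, adjusted p = 0.355), in which the scatter of Ccn2 under KN046 and the combination also counts. In a fit of the 8 mice alone Ccn2 was called, together with Sparcl1.

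Tnc was 18.2, 20.8, 27.9 and 38.0 CPM with SB525334, which reads differently against the 2 control pairs. Over all controls the log2 fold change was -0.78 (SE 0.36, adjusted p = 0.256), against control mice 1 and 2 it was -1.28 (adjusted p = 0.0299), and against control mice 3 and 4 it was 0.021. Fn1 was 993, 862, 989 and 1406 CPM, with a log2 fold change of -0.42 (SE 0.17, adjusted p = 0.166), or -0.59 without SB525334 mouse 4 (adjusted p = 0.0366). Thbs1 had its widest scatter here, at 41.7, 44.4, 161 and 86.5 CPM, with the highest value in the same mouse 3 that was high in Ccn1. Postn and Thbs2, which separated the combination from control, overlapped with control in CPM under SB525334 alone, with log2 fold changes of -0.16 (adjusted p = 0.822) and 0.18 (adjusted p = 0.653). Relative to the fibroblast list, however, Postn with SB525334 (-2.51 to -2.24) lay below control (-2.12 to -2.01), while Thbs2 overlapped. Sparc was 2544, 2675, 2366 and 2627 CPM, overlapping with the controls (0.091, 95% interval -0.20 to 0.39). Cthrc1 also overlapped with control under SB525334, with a log2 fold change of -0.96 (95% interval -2.04 to 0.11, adjusted p = 0.335).

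KN046 alone was compared with control to ask what the antibody does by itself. None of the 10 genes was called, where 4.0% of all genes were (2.4% lower and 1.6% higher), and 5 log2 fold changes were below 0 and 5 above, with a median of -0.0044. By edgeR 2 of the 10, Cthrc1 and Ccn2, had an unadjusted p under 0.05, and DESeq2 also called none. Cthrc1 was below every control mouse in all 4 KN046 mice, the 1 gene of the 10 without overlap, where 6.65% of all genes did not overlap with KN046 lower and 4.94% with KN046 higher (log2 fold change -1.23, SE 0.52, 95% interval -2.33 to -0.14, adjusted p = 0.169). Ccn2 leaned the other way (0.72, SE 0.31, 95% interval 0.06 to 1.37, adjusted p = 0.179). Ccn1, with 112, 117, 179.6 and 204 CPM, and Sparcl1, with 42.0, 11.9, 26.8 and 26.1 CPM, scattered on both sides of the controls. Tnc (15.3, 24.9, 44.1 and 46.5 CPM) and Postn both had lower values in KN046 mice 1 and 2 than in mice 3 and 4. Sparc was 2744, 1729, 2494 and 2489.8 CPM, and the lowest Sparc value of the study was that of KN046 mouse 2. Of the fibroblast genes only Thy1 was called lower with KN046, and of the 15 hepatocyte genes edgeR and DESeq2 called 0, with 2 at an unadjusted p under 0.05.

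Whether the agents together differed from the sum of their separate log2 effects was tested as an interaction. None of the 10 genes was called by edgeR, where 4.28% of all genes were (2.55% below 0 and 1.73% above), and 2 had an unadjusted p under 0.05. They were Thbs2, with an interaction of 0.83 (SE 0.23, 95% interval 0.34 to 1.32, adjusted p = 0.0545), and Postn, with -0.79 (SE 0.36, adjusted p = 0.269). DESeq2 called 1, Thbs2 (0.81, adjusted p = 0.0157). Thbs2 was also called by edgeR with control mice 1 and 2 only. Over all alternative settings its interaction ran from 0.63 to 0.99, with adjusted p from 0.0157 to 0.161. Thbs2 overlapped with control under each agent alone, at a mean ± SD of 8.54 ± 1.22 CPM with SB525334 and 7.998 ± 1.36 with KN046 against 7.54 ± 1.11 in controls and 16.04 ± 1.42 with the combination (n = 4 each). Cthrc1 followed another order, with 3.77 ± 0.643 CPM in controls, 1.93 ± 1.12 with SB525334, 1.60 ± 0.864 with KN046 and 0.273 ± 0.242 in the combination group, and the SB525334 and KN046 mice overlapped. The comparisons with control share the 4 control mice, and those of the combination share the 4 combination mice, so they are not independent of each other.

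Lists of related genes were read beside the 10. Of 19 other matricellular genes 16 were tested, and edgeR called 2 lower and 1 higher in the combination against control (9.74% and 1.37% of all genes) and DESeq2 called 4, with a median log2 fold change of 0.12. Smoc1, a SPARC relative, was 12.1 ± 1.36 CPM in controls, 1.23 ± 0.295 with SB525334, 12.1 ± 3.57 with KN046 and 0.134 ± 0.168 in the combination group (n = 4 each). Its fall with SB525334 had a log2 fold change of -3.28 (edgeR adjusted p = 3.4e-06), and that with the combination -6.36 (1.0e-08 by the same test). Vtn, which encodes the plasma protein vitronectin made by hepatocytes, went from 438 ± 64.6 CPM in controls to 41.2 ± 22.0 with SB525334 and 3.86 ± 2.19 with the combination. The falls of Smoc1 and Vtn ran with those of the hepatocyte list given above, and the part of hepatocytes in them was not tested. Tnn, the tenascin-W gene, rose from 0.330 CPM in controls to 2.06 with the combination (2.60, adjusted p = 1.3e-04). Ccn5, a CCN protein that lacks the C-terminal domain of Ccn1 and Ccn2, averaged 12.2 CPM in controls, 9.83 with SB525334, 5.63 with KN046 and 18.3 in the combination group. It fell with KN046 (-1.11, adjusted p = 0.0166), rose in the combination against KN046 (1.70, adjusted p = 9.7e-06), the comparison in which Ccn2 fell, and passed the interaction test (2.01, adjusted p = 5.4e-04).

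Among 16 tested receptor genes of matricellular proteins, edgeR called 1 and DESeq2 2 between the combination and control, where edgeR called 11.1% of all genes, and the median log2 fold change was -0.096. It was Itga9, an integrin subunit that binds tenascin-C, which fell from a mean of 34.3 to 17.4 CPM (-0.98, adjusted p = 0.00490). With SB525334 the thrombospondin receptor Cd36 fell (-1.59, adjusted p = 0.00150), as did Itga8 (-2.36, adjusted p = 6.9e-04), while Itgb5, a subunit of a vitronectin and periostin receptor, rose (0.40, adjusted p = 0.0287). Cd36 was higher in the combination than with SB525334 (1.56, adjusted p = 0.0047). Its value near 0 against control (-0.03) averages unlike control pairs. Cd36 was 26.6 and 26.7 CPM in control mice 1 and 2, and 10.5 and 10.8 CPM in mice 3 and 4. The combination mice, at 15.4 to 21.6 CPM, lay between the pairs. Itga9 and Itga8 were also higher in control mice 1 and 2. Even so, Cd36 and Itga8 with SB525334, and Itga9 in the combination, were below every control mouse. Itgb5 with SB525334 overlapped with control.

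Of 22 YAP-TEAD targets other than Ccn1 and Ccn2, edgeR called none in either single-agent comparison or in the combination against control, while 1, 4 and 2 had an unadjusted p under 0.05 and DESeq2 called 0, 1 and 1 for SB525334, KN046 and the combination. The median log2 fold changes were -0.016, 0.12 and -0.023 in the same order. Only Crim1 was called in the combination against KN046, where Ccn2 fell (-0.70, adjusted p = 0.00576). Of 20 TGF-β response genes, Smad7, which encodes the feedback inhibitor of the pathway, was the 1 called lower by edgeR with SB525334 (-0.55, adjusted p = 0.0295), from a mean of 55.3 to 37.8 CPM, while 6 had an unadjusted p under 0.05 and DESeq2 called 3. In the combination against control Smad7 (-0.49, adjusted p = 0.0484) fell and so did Lox, the collagen cross-linking enzyme (-1.46, adjusted p = 0.00830), and none rose. Against KN046 the combination had 4 of the 20 lower and 2 higher, among them Tgfb1 higher (0.38, adjusted p = 0.00426). The median log2 fold change of the 20 genes was -0.093 with SB525334 and -0.10 with the combination. All genes called lower made up 9.22% with SB525334, 9.74% in the combination against control and 14.5% against KN046.

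For each of the 10 genes, the genes with the most similar pattern were found as those with the highest Pearson correlation of log2(CPM + 1) over the 16 mice, among 12828 other genes with a mean of at least 1 CPM. Differences between groups and between mice both enter these values, which are descriptions over shared libraries. Cthrc1 was most like Tmem45a (r = 0.957), and Postn most like Adamts12 (0.910) and Col5a2 (0.894), the latter a fibrillar collagen gene. Thbs2 was most like the granzyme genes Gzmc (0.926) and Gzmd (0.919), which are expressed by cytotoxic lymphocytes. Ccn1 was most like Fos (0.895), an immediate early gene, and Ankrd1 (0.856), a YAP-TEAD target, whereas Ccn2 was most like Sox5 (0.866). Fn1 was most like Col12a1 (0.882), Sparcl1 like Fxr1 (0.900), Tnc like Csf2rb (0.879), Thbs1 like Naaladl1 (0.883) and Sparc like Hcfc1r1 (0.918). Within the 10, Cthrc1 and Thbs2 ran most opposite to each other (-0.822) and Thbs1 and Ccn2 most together (0.688), followed by Postn and Cthrc1 (0.671).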

How the data were processed

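Tumor RNA of 16 mice with MC38 liver metastases was sequenced by Illumina. The authors used cutadapt 2.7 for trimming, HISAT2 2.2.1 for alignment (GRCm39) and HTSeq 2.0.4 for counting per gene, and deposited the raw counts used here. How strand and multiply aligned reads were handled is not given in the sources used here, but none of the 10 genes overlaps another counted gene. The deposited normalized values (DESeq2 1.38.3) were not used. Of 21959 genes, 21770 identifiers were matched to GENCODE M39. The labels do not say more of the 4 samples per group than their numbers, so p-values measure the spread between these samples.

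Counts were tested in R 4.3.3 with edgeR 4.0.16: filterByExpr with a minimum count of 10 (13968 genes kept), TMM scaling and 1 quasi-likelihood fit over the 16 mice without covariates, with Benjamini-Hochberg adjustment over all genes tested and a threshold of 0.05. A gene is called when its adjusted p is below that. The biological coefficient of variation was 20.1%. CPM use TMM-scaled totals, and levels per length divide CPM by the union of exons. Ratios to fibroblast genes add 0.01 CPM to the term of the member alone, since no fibroblast value was 0. The script for the fits was tested on simulated data. The genes named are the 10 members, at most 4 genes per list (those with the smallest adjusted p among genes called) and the nearest genes by correlation. The members and lists were chosen with earlier results of these data known. Alternatives were DESeq2 1.42.0, other scalings, other filters on low counts, the study's thresholds, the 8 mice of a comparison alone, merged control pairs, a replicate block and each mouse left out. Fits with 1 control pair only were added after seeing the data. Some items among the named genes and promoters are not reported here.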

Additional observations from a re-analysis of the deposited data

Results flagged for a closer look

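Within groups of 4 mice, the highest and lowest values of each of the 10 genes were compared with the rest, which made 40 groups. In 2 of them a mouse stood apart from the other 3 by more than Dixon's 95% critical value, and chance alone flags about 1 in 20 groups, or 2 of 40. Both were in the SB525334 group and were different mice. Ccn1 was 132 CPM in SB525334 mouse 3, against 61.2 to 70.0 CPM in the other mice of the group. Ccn2 was 8.14 CPM in SB525334 mouse 1, against 13.0 to 13.5 CPM in the others.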

How the results depend on the processing

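The number of the 10 genes called was recomputed under each alternative. For SB525334 against control it was 1, and became 0 with the study's thresholds, with control pairs merged and with control mice 3 and 4 only, 2 with the 8 mice alone, and 0 to 2 with a mouse left out. The number stayed at 1 with control mice 1 and 2 only and without SB525334 mouse 3. The gene called was then Tnc and Ccn1 respectively, in place of Sparcl1. For KN046 it was 0 and became 1 (Cthrc1) with the study's thresholds. The combination against control gave 3, which became 2 (without Postn) with the study's thresholds, control pairs merged or control mice 3 and 4 only, 4 with the 8 mice alone or control mice 1 and 2 only, and 3 to 4 with a mouse left out. Against KN046 it gave 4, which became 5 with DESeq2 (Fn1 added), 2 with the study's thresholds and 4 to 6 with a mouse left out. With the 8 mice alone the number stayed at 4, with Thbs1 in place of Postn. Against SB525334 the combination gave 2, which became 1 with the study's thresholds or the 8 mice alone, and 2 to 3 with a mouse left out. DESeq2 also called Postn there. The interaction gave 0, and became 1 with DESeq2, the study's thresholds and control mice 1 and 2 only, and 0 to 1 with a mouse left out. Directions that turned were all of genes not called. With control mice 3 and 4 only, Tnc became 0.021 with SB525334, and in the combination against control Sparc became -0.049, Tnc 0.35 and Ccn1 -0.038. With a mouse left out, Ccn1 in that comparison ran from -0.031 to 0.18. Dividing by the longest transcript in place of the union of exons moved Postn to 7.34, Sparc to 973, Sparcl1 to 5.49 and Fn1 to 148 CPM per kilobase. Refits by gene covered 28 of 60 results, those of the combination against control and others with an unadjusted p under 0.05, so most changes near 0 were not refitted. Of these values with a mouse left out, 223 kept their direction and side of the threshold, 9 newly passed it, 7 no longer did and 1 changed sign.

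The replicate number as a block gave 1, 0, 3, 4, 2 and 0 genes called in the 6 comparisons, in the order above. Same-numbered mice of different groups had correlations of deviations from -0.483 to 0.527, with 11 of 24 over 0.1, and in none of the 6 pairs of groups were all 4 over 0.1. A mouse correlated best with its own number in 18 of 48 cases, where 12 are expected by chance. These cases are not independent of each other, so the check cannot exclude a pairing. Since the labels name no pairing, the numbers were not taken as one. At the depth of Cthrc1, with 0 to 10 reads per combination mouse, its exact level there is poorly known.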
